A study of Mus musculus with 4 samples.

Results

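DEAD and DEAH box proteins are RNA helicases named after a short run of amino acids in the motif that binds and hydrolyses ATP. DEAD box proteins pry open short duplexes locally and clamp onto RNA, while DEAH box proteins travel along a strand and pull structures or proteins off it. Between them they drive the steps of splicing, the assembly of ribosomes in the nucleolus, the export of mRNA through nuclear pores, translation and mRNA decay, and some take part in the recognition of foreign nucleic acid in macrophages. The genes described here were the rows of the deposited gene table whose symbol begins with Ddx or Dhx and a number, with at least 10 counts summed over the 4 libraries. The antiviral sensor genes Ddx58 and Dhx58 and the Y-linked Ddx3y were left out by name. Of 34745 genes in the table, 55 had such a symbol, 3 were left out by name and 3 were under the minimum, which left 49.

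The rule read the symbol and the count summed over all 4 libraries, and Ddx58, Dhx58 and Ddx3y were left out with earlier results of these data known. Just under the minimum were Dhx58os with 6 counts in all, which is an antisense transcript, and the germ cell genes Ddx25 and Ddx43 with 1 count each. Just above it were Ddx4 with 40 counts and Ddx11 with 217. For 1 of the 49, Ddx26b, GENCODE gives the symbol Ints6l, a relative of an Integrator subunit that is not counted among the RNA helicases, so this gene belongs to the group by its older symbol only. The other 48 carried the same symbol in both sources.

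All 4 libraries were made from peritoneal macrophages. The donors were wildtype C57BL/6 mice, and the cells were collected 3 days after 2 ml of 3% thioglycolate medium and kept as adherent cultures. The series title speaks of bone marrow-derived cells, but each sample is labelled as peritoneal, which is followed here. The 2 DMSO libraries were from cells given the solvent and then lipopolysaccharide (LPS, the Toll-like receptor 4 agonist of Gram-negative bacteria) at 100 ng/ml for 4 hours. The 2 MB-3 libraries were from cells given 50 µM MB-3 before the same LPS. MB-3 is a small molecule known as an inhibitor of the histone acetyltransferase GCN5, and the labels do not name its target. No cells without LPS were analysed here. Nothing in the labels says whether the replicates came from separate animals or cultures, so p-values measure the spread between these libraries only, which may be technical.

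Library totals ran from 15598531 to 21320618 counts, and 1 count was worth 0.0469 to 0.0641 CPM, the unit of counts scaled to library depth. The macrophage markers Lyz2, Cd68 and Adgre1 were abundant in each library. The list of 8 marker symbols summed to 24450 and 25022 CPM with DMSO and to 31079 and 30946 CPM with MB-3, most of it from Lyz2. Of its 9 rows (Itgam has 2) 4 were higher and 3 lower. Cd14 went from 1081 and 1154 CPM with DMSO to 572 and 561 CPM with MB-3. Fcgr1 went from 48.0 and 60.0 CPM to 9.89 and 10.8 CPM, and Mertk from 41.1 and 30.1 CPM to 15.5 and 12.2 CPM. The 4 B cell markers summed to at most 2.38 CPM in each library, and Ly6g, Prg2, Epx, Xcr1 and Fcer1a had 0 counts throughout. The T cell list went from 17.5 and 17.3 CPM in sum to 2.23 and 2.51, nearly all of it from Lck, while Cd3e stayed at or under 0.112 CPM. The neutrophil list went from 21.6 and 22.2 CPM to 12.3 and 9.99, nearly all from S100a8. Among genes of cycling cells, Mki67 went from 19.0 and 22.2 CPM to 1.79 and 3.24, while Top2a, Ccnb1 and Ccna2 did not pass the test. The part of these shifts in the helicase results was not tested. In bulk RNA, fewer cells of a type and less RNA per cell cannot be told apart.

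The sequences before the transcription starts of 2 members are shown, that of Ddx60 because it had the largest change among well expressed members and that of Ddx50 because it had the largest rise. They cover 250 bases upstream of the RefSeq start, on the coding strand, in build GRCm38.p6. Capitals in Ddx60 mark the core of elements bound by interferon regulatory factors, GAAA followed by any 2 bases and GAAA again. Capitals in Ddx50 mark CCAAT, which appears there as its reverse complement ATTGG, and CCGGAAG, letters of the kind bound by ETS factors. The Ddx60 window also holds exons of Gm45418, a gene on the opposite strand.
Ddx60 (plus strand, chr8:61927837-61928086): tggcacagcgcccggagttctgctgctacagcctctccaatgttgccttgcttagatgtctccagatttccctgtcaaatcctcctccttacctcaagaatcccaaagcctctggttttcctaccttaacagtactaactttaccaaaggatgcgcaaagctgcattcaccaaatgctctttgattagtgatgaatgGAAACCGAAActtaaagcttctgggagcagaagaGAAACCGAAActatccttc
Ddx50 (minus strand, chr10:62651219-62651468): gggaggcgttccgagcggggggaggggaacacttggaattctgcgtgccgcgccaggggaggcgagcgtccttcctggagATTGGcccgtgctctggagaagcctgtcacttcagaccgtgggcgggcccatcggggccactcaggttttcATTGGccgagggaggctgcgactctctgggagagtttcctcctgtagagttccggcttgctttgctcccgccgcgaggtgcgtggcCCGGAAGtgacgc

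RefSeq promoter entries were found for 43 of the 49 genes, with 54 starts among them, and not for Ddx6, Ddx11, Ddx23, Ddx26b, Ddx39 and Dhx38. Both strands were searched for 6 motifs in the 250 upstream bases. The interferon regulatory factor core occurred at 3 of the 54 members' starts (5.56%), in 2 of the 43 genes, Ddx60 and Ddx49. It was in 2.84% of the promoters of tested genes and in 2.98% of all 32851 promoters. In Ddx60 it occurred in 2 copies, 53 and 19 bases before the start, both spelled GAAACCGAAA. In Ddx49 the letters were GAAAAAGAAA. They were 246 and 227 bases before different starts with overlapping windows, so the same element may be counted at each start. CCGGAAG was found at 31.5% of the members' starts, against 14.0% of the 11296 promoters of tested genes and 6.91% of all promoters. Its 16 member genes included ones that fell (Ddx1, Ddx10, Ddx17, Ddx39b, Ddx49, Ddx55, Dhx16), one that rose (Ddx50) and ones that did not pass (Ddx5, Ddx54, Dhx9). CACGTG, an E-box, was at 11.1% of members' starts and 8.40% of those of tested genes, TGACNNNGC at 13.0% and 11.8%, and CCAAT at 40.7% and 35.1%. The consensus NF-kappaB site was in 0 of the members' windows, in 0.195% of the promoters of tested genes and in 0.140% of all promoters. These matches describe letters in the windows and are not evidence of binding.

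The comparison asked how helicase transcripts of LPS-stimulated macrophages differed after MB-3. Most of the 49 genes stayed within 2-fold, and those that passed the test were mainly lower with MB-3. The antiviral helicase gene Ddx60 was 3.32-fold lower and the mitochondrial helicase gene Ddx28 was 2.21-fold lower. Ddx27 and Ddx24, both nucleolar, were 1.73-fold and 1.70-fold lower. The 3 that rose were Ddx50, a nucleolar gene, at 1.49-fold, Ddx6, a gene of mRNA repression, at 1.38-fold, and Ddx23, a splicing gene, at 1.25-fold.

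Of the 49 genes, 20 were lower (40.8%), 3 were higher (6.12%) and 26 did not pass. The threshold was a Benjamini-Hochberg adjusted p of 0.05 over 11841 genes, from the quasi-likelihood test of edgeR. Over all genes tested, 20.2% were lower, 16.9% were higher and 37.1% were called in either direction. The median log2 fold change was -0.26 for the helicases and -0.01 for all genes tested, and without DMSO replicate 1 these medians were -0.15 and 0.02. The median of its absolute value was 0.32 and 0.39 in the same order, so helicase changes were mostly small. Called changes of at least 2-fold were seen for 3 helicases (6.12%), Ddx4 among them, against 14.6% of tested genes. The groups did not overlap for 38 helicases (77.6%), against 70.8% of tested genes. They were apart for 32 helicases in the lower direction (65.3%) and 6 in the higher (12.2%), against 37.0% and 33.8% of tested genes. Ddx4 entered the test through its DMSO counts alone, so that its call supports nothing. It is also among the 32 helicases apart in the lower direction, which supports nothing either. Without Ddx4, 19 of 48 helicases were lower, the median was -0.26 and the groups did not overlap for 37. With any 1 library left out, fewer helicases and also fewer genes in all were called lower. The median log2 fold change of the helicases was then -0.29 to -0.15. DESeq2 gave 13 lower helicases, and 2040 lower genes of the 11841 tested. Of the 22 called genes other than Ddx4, 12 were called in each alternative, namely Ddx60, Ddx28, Ddx27, Ddx24, Ddx19b, Dhx16, Ddx17, Ddx39b, Ddx41, Ddx56, Ddx50 and Ddx6.

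**Figure D1:**
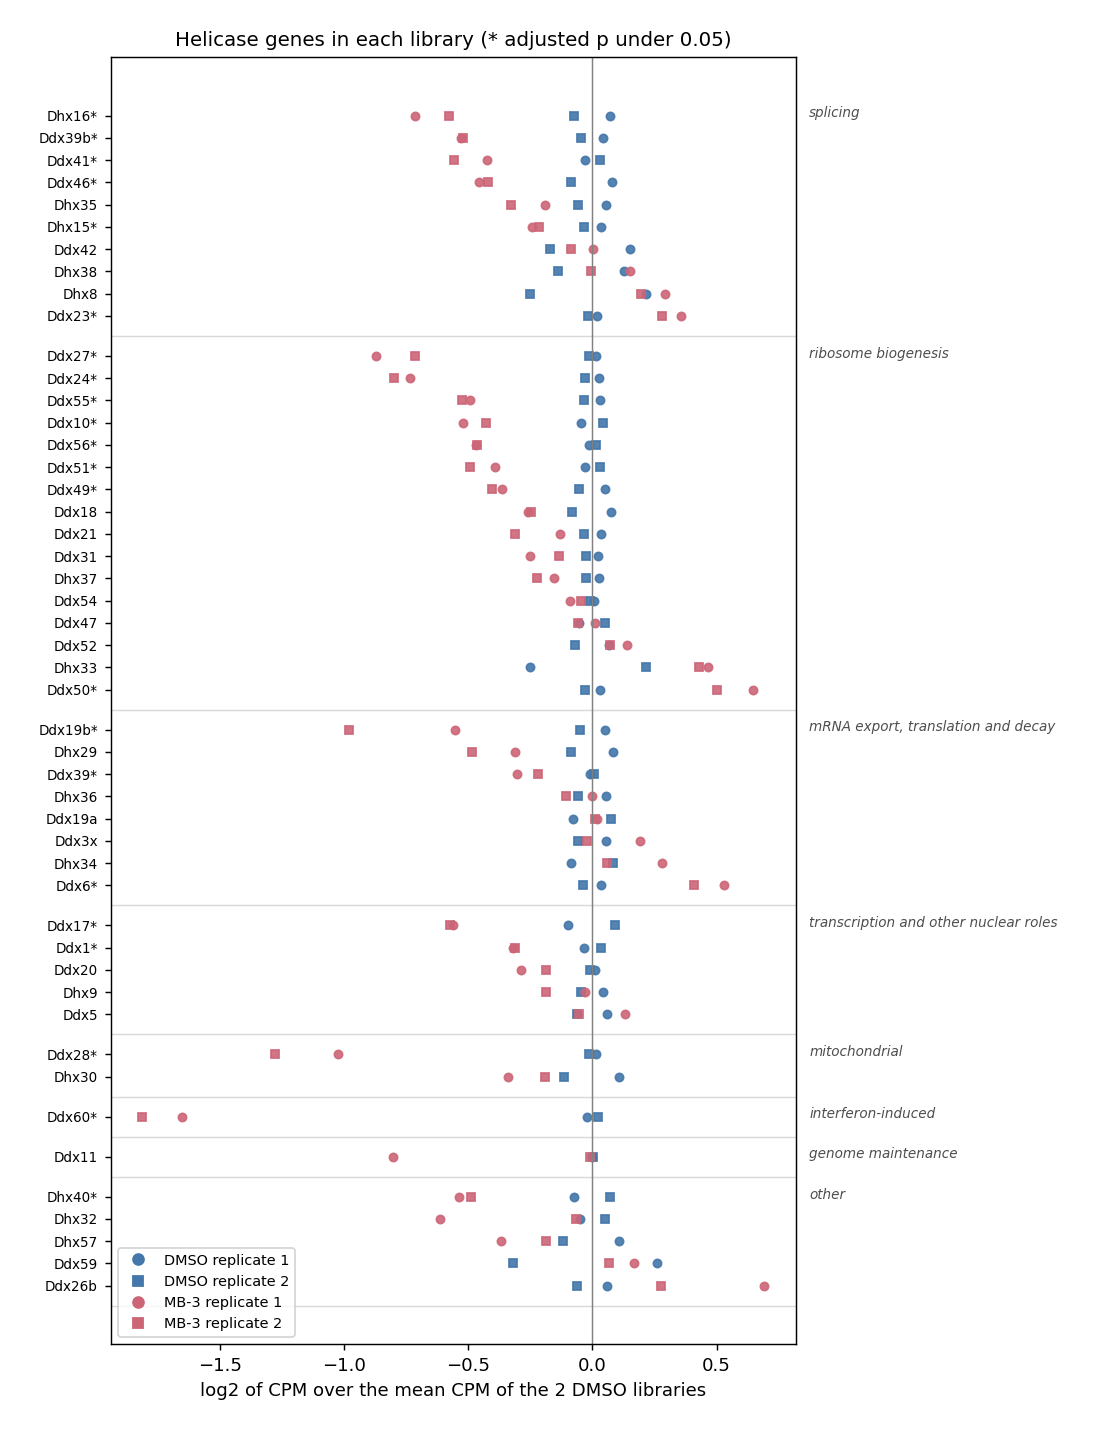
Each row is a helicase gene and each point a library, placed on the horizontal axis by the log2 of its CPM over the mean CPM of the 2 DMSO libraries. Genes are grouped by role, circles are replicate 1 and squares replicate 2, blue is DMSO and red MB-3, and Ddx4 is not drawn because its MB-3 counts are 0. The red points lie left of the blue ones for most rows, farthest for Ddx60 and Ddx28. They lie to the right for Ddx50, Ddx6 and Ddx23, and also for Dhx33, Ddx26b and Ddx52, which did not pass.

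**Figure D2:**
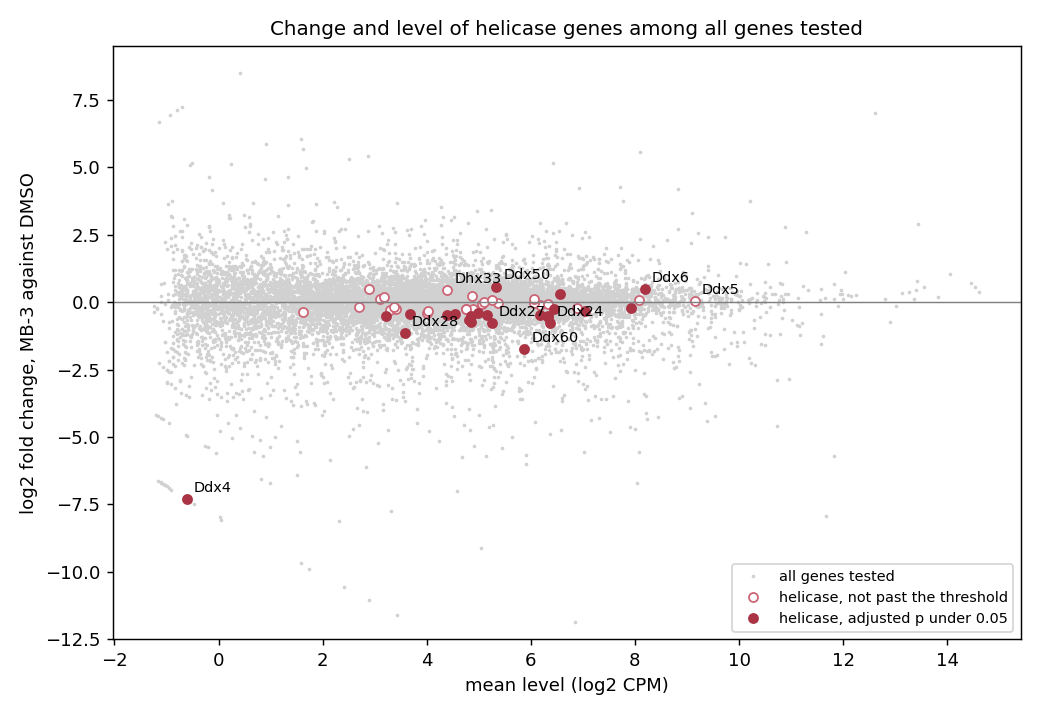
Each grey point is a tested gene, with its mean level (log2 CPM) on the horizontal axis and its log2 fold change, MB-3 against DMSO, on the vertical axis. The 49 helicases are circles, filled where the adjusted p was under 0.05. Apart from Ddx4 at the lower left, Ddx60 and Ddx28, the helicases lie within 1 log2 unit of no change.

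Taken per gene length, as deposited FPKM (fragment counts divided by gene length and by depth), the levels of the helicases spread widely. Ddx5, a co-regulator of transcription that also serves microRNA processing, had the highest mean at 59.5 FPKM. Ddx1, which belongs to the complex that ligates tRNA exons, followed with 52.5 FPKM, and then Ddx6 with 47.8, Ddx3x with 39.8 and Ddx41 with 32.8. The median gene was Ddx27 at 6.08 FPKM, and the lowest were Ddx11 at 0.715, Ddx26b at 0.496 and Ddx4 at 0.190. The deposited FPKM values imply a length of 2507 bases for Ddx1 and 9499 bases for Ddx5. GENCODE exons cover 5080 and 5775 bases of these genes, so the order between genes and the sums of FPKM depend on the length used. Summed over the 49 genes, the level was 596 and 588 FPKM with DMSO and 518 and 509 FPKM with MB-3, and on the TMM scale 3336 and 3205 CPM with DMSO and 3113 and 2923 CPM with MB-3. As a share of all counts, helicases had 0.336% and 0.328% in the DMSO libraries and 0.301% and 0.293% in the MB-3 libraries. FPKM and shares are relative to the library total, of which the 10 most abundant genes took 13.3% and 13.1% with DMSO and 19.0% and 19.4% with MB-3. The summed level of ribosome biogenesis helicases went from 166 and 163 to 136 FPKM in each MB-3 library, and that of splicing helicases from 127 and 122 to 102 and 101 FPKM. The summed level of the helicases of export, translation and decay was 119 and 116 FPKM with DMSO and 130.2 and 124 FPKM with MB-3, but without Ddx6 it was 77.8 and 76.3 FPKM with DMSO and 74.1 and 70.1 FPKM with MB-3.

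Ddx60 encodes an interferon-induced cytoplasmic helicase with reported antiviral activity. It is a protein-coding gene (ENSMUSG00000037921) on chromosome 8 from 61928087 to 62037701 in the deposited table, whose notes name mm10 and GRCm38.p4. It had 88.7 and 91.5 CPM in the DMSO libraries and 28.7 and 25.6 CPM in the MB-3 libraries. Both MB-3 libraries were far under both DMSO libraries. The log2 fold change was -1.73 (SE 0.097, edgeR adjusted p = 5.99e-05). Beside it, the 3 interferon-induced RNA sensor genes that are not members were all lower as well, at -2.82 (SE 0.099) for Dhx58, -1.78 (SE 0.084) for Ddx58 and -0.50 (SE 0.12) for Ifih1. Their upstream sequences were not examined here.

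The mitochondrial group has Ddx28, which serves the assembly of the large subunit of the mitochondrial ribosome, and Dhx30, which works in the same RNA granules. Ddx28 (ENSMUSG00000045538, chromosome 8 from 106009621) had 16.4 and 16.1 CPM with DMSO and 7.99 and 6.69 CPM with MB-3. It was lower in both MB-3 libraries by a margin larger than the spread of either group (log2 fold change -1.15, SE 0.15, edgeR adjusted p = 0.00217). Dhx30 had 31.6 and 27.1 CPM with DMSO and 23.2 and 25.8 CPM with MB-3. The groups of Dhx30 did not overlap, but its log2 fold change of -0.26 (95% interval -0.56 to 0.04) did not pass. The exons of Ddx28 share 72 bases with Dus2 on the opposite strand, which was also lower (-0.56, edgeR adjusted p = 0.0400).

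Helicases of ribosome biogenesis numbered 16, most of them with yeast counterparts that act in pre-rRNA processing. Of these, 7 fell (Ddx27, Ddx24, Ddx55, Ddx10, Ddx56, Ddx51 and Ddx49), 1 rose (Ddx50) and 8 did not pass, with a median log2 fold change of -0.24, against 20.2% lower and 16.9% higher of all genes tested. Ddx24 (ENSMUSG00000041645), which matures the large ribosomal subunit, had 105 and 101 CPM with DMSO and 62.1 and 59.4 CPM with MB-3. Its groups were widely apart (log2 fold change -0.76, SE 0.083, edgeR adjusted p = 8.85e-04). Ddx27 (ENSMUSG00000017999), which acts with factors of large subunit assembly, had 48.3 and 47.5 CPM with DMSO and 26.2 and 29.2 CPM with MB-3. It too was lower in both MB-3 libraries (-0.79, SE 0.099, edgeR adjusted p = 0.00162).

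The other nucleolar genes that fell did so by less. Ddx56 was at 40.7 and 41.5 CPM with DMSO and at 29.7 CPM in each MB-3 library, a log2 fold change of -0.47 (SE 0.090). Ddx10 was at 23.5 and 25.1 CPM with DMSO and at 16.9 and 18.1 CPM with MB-3 (-0.47, SE 0.11). The log2 fold changes of Ddx55, Ddx51 and Ddx49 were -0.51, -0.44 and -0.38. The calls of Ddx55, Ddx10 and Ddx51 were lost without any 1 of the 4 libraries, and that of Ddx49 without DMSO replicate 1, MB-3 replicate 1 or MB-3 replicate 2. For Ddx49, 29.8% of exon bases lie across from exons of Homer3 on the other strand, which was lower by a similar amount (-0.35), and the counting is not stated to use strand, so the value of Ddx49 is uncertain.

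Of those that did not pass, Ddx18, Ddx21, Ddx31, Dhx37 and Ddx54 had lower values in both MB-3 libraries than in either DMSO library, with log2 fold changes from -0.25 to -0.07. Transcripts of Ddx18 share 55.9% of their 50-base windows with other annotated transcripts, mainly predicted genes, so its value is uncertain. Ddx52 (0.10, 95% interval -0.12 to 0.32) and Ddx47 (-0.02, 95% interval -0.24 to 0.19) did not pass. Dhx33, which has roles in ribosomal RNA transcription and in inflammasome activation, had 14.9 and 20.6 CPM with DMSO and 24.5 and 23.9 CPM with MB-3, with a log2 fold change of 0.45 (SE 0.17, edgeR adjusted p = 0.0804). The log2 fold change of Dhx33 was 0.71 without DMSO replicate 2 but 0.28 without DMSO replicate 1. Without MB-3 replicate 1 or 2 it was 0.44 and 0.47. Leaving out DMSO replicate 1 or 2 gave 3 and 4 lower genes in the ribosome biogenesis group, and leaving out MB-3 replicate 1 or 2 gave 3 each.

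Ddx50 (ENSMUSG00000020076) and Ddx21 (ENSMUSG00000020075) encode closely related nucleolar helicases and lie side by side on chromosome 10, with 13724 bases between them. Ddx50 had 33.0 and 31.7 CPM with DMSO and 50.6 and 45.8 CPM with MB-3. It was the helicase with the largest rise (log2 fold change 0.57, SE 0.098, edgeR adjusted p = 0.00550). Ddx21 had 130 and 124 CPM with DMSO and 116 and 102 CPM with MB-3, with a log2 fold change of -0.22 (95% interval -0.44 to 0.01) that did not pass, though it did with library totals in place of TMM and on FPKM. The ratio of Ddx50 to Ddx21 counts within a library, which library scaling cannot move, was 0.255 and 0.256 with DMSO and 0.437 and 0.449 with MB-3. This ratio was 1.73-fold higher with MB-3, and an exact two-sided permutation test of it gave p = 0.333, the smallest that 2 libraries against 2 allow.

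Ddx19a and Ddx19b are likewise neighbours, on chromosome 8 with 5387 bases between them. Ddx19b is the counterpart of yeast Dbp5, which releases mRNA from its proteins at the nuclear pore. It had 37.4 and 34.9 CPM with DMSO and 24.6 and 18.3 CPM with MB-3, and both MB-3 libraries were lower (log2 fold change -0.75, SE 0.16, edgeR adjusted p = 0.0116). Ddx19a had 32.3 and 35.8 CPM with DMSO and 34.5 and 34.3 CPM with MB-3, with overlapping groups (0.02, 95% interval -0.23 to 0.26). Their count ratio, Ddx19b over Ddx19a, was 1.16 and 0.974 with DMSO and 0.715 and 0.533 with MB-3. The exact two-sided permutation p was again 0.333. Transcripts of the 2 genes share 28.1% of the 50-base windows of Ddx19a and 12.4% of those of Ddx19b, so reads could have been split between them. Gle1, the partner that activates this helicase at the pore, fell from 29.1 and 32.1 CPM to 21.9 and 18.8 CPM (-0.59, SE 0.12).

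**Figure D3:**
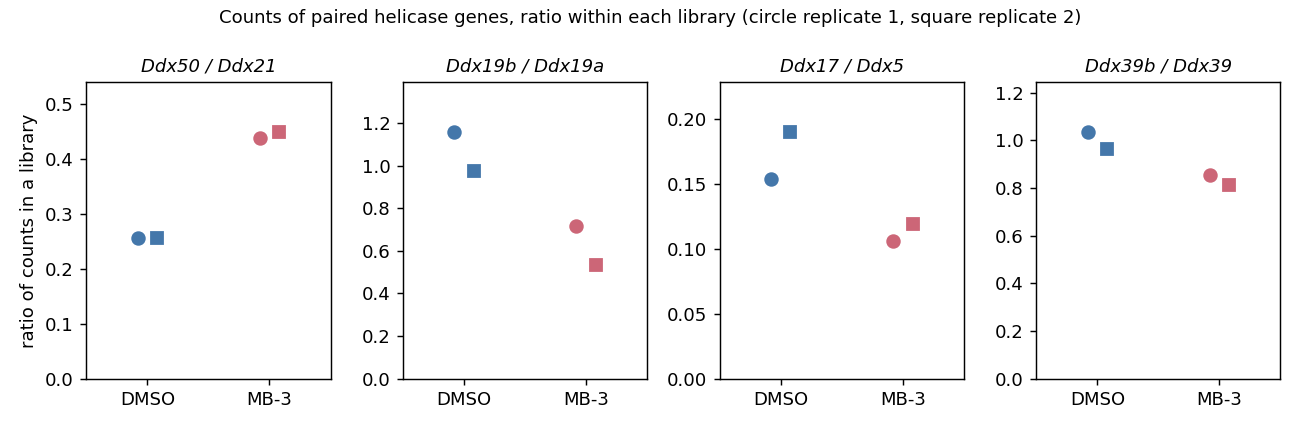
Each panel plots the ratio of the counts of 2 related helicase genes within a library, DMSO on the left and MB-3 on the right, with circles for replicate 1 and squares for replicate 2. The groups are apart in all 4 panels. Ratios were taken for these 4 pairs only and not for other related genes, such as Dhx9 and Dhx30 or Dhx29 and Dhx57. Ddx50 over Ddx21 is at most 0.256 with DMSO and at least 0.437 with MB-3, while Ddx19b over Ddx19a, Ddx17 over Ddx5 and Ddx39b over Ddx39 are lower with MB-3.

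The group of mRNA export, translation and decay had 8 genes, of which 1 rose (Ddx6), 2 fell (Ddx19b and Ddx39) and 5 did not pass, against 20.2% lower and 16.9% higher of all genes tested. Their median log2 fold change was -0.02. Ddx6 encodes a helicase of P-bodies that represses translation and promotes decapping together with the CCR4-NOT complex. It had 250.1 and 238 CPM with DMSO and 352 and 323 CPM with MB-3. Both MB-3 libraries were higher (log2 fold change 0.47, SE 0.078, edgeR adjusted p = 0.00513). Ddx3x, which aids translation initiation on structured leaders, had 273 and 253 CPM with DMSO and 301 and 259 CPM with MB-3, with overlapping groups (0.09, 95% interval -0.14 to 0.32). Dhx29, which helps the small ribosomal subunit scan, was at 19.1 and 17.0 CPM with DMSO and 14.5 and 12.9 CPM with MB-3, without overlap, but its change of -0.40 (SE 0.14) did not pass (edgeR adjusted p = 0.0640), though it did in 3 alternatives. Dhx36, which unwinds G-quadruplexes, and Dhx34, of nonsense-mediated decay, had log2 fold changes of -0.05 and 0.18, and neither passed.

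Ddx39 and Ddx39b encode 2 near relatives that couple splicing to mRNA export. Ddx39b had 97.8 and 92.1 CPM with DMSO and 65.8 and 66.2 CPM with MB-3, which was lower in both libraries (log2 fold change -0.53, SE 0.083, edgeR adjusted p = 0.00405). Ddx39 had 94.4 and 95.4 CPM with DMSO and 76.8 and 81.5 CPM with MB-3. Its fall of -0.26 (SE 0.082) was close to the threshold (edgeR adjusted p = 0.0481), and the call was lost without any 1 of the 4 libraries, with DESeq2, with DESeq2 size factors and with no filter. The adjusted p of Ddx39 over edgeR, DESeq2 and limma alternatives ran from 0.0335 to 0.217. For Ddx39, 17.4% of exon bases lie across from exons of Adgre5 on the other strand.

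Splicing helicases numbered 10, and with MB-3 5 fell (Dhx16, Ddx39b, Ddx41, Ddx46 and Dhx15), 1 rose (Ddx23) and 4 did not pass, against 20.2% lower and 16.9% higher of all genes tested. Their median log2 fold change was -0.24. Dhx16, the counterpart of yeast Prp2 that readies the spliceosome for its first step, had 35.8 and 32.5 CPM with DMSO and 20.8 and 22.9 CPM with MB-3. Its groups were apart (log2 fold change -0.65, SE 0.11, edgeR adjusted p = 0.00587). Ddx41 is a spliceosome-associated helicase that has also been described as a sensor of cytosolic DNA. It had 82.5 and 86.0 CPM with DMSO and 62.7 and 57.2 CPM with MB-3 (-0.49, SE 0.090, edgeR adjusted p = 0.00730). For Ddx41, 17.4% of exon bases lie across from exons of Gm46416, an antisense gene on the other strand.

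Ddx46, the counterpart of yeast Prp5, which acts when the branch point is recognised, was at 28.1 and 25.0 CPM with DMSO and 19.3 and 19.8 CPM with MB-3 (-0.44, SE 0.11). Dhx15, which takes spent spliceosomes apart, was at 267 and 254 CPM with DMSO and 220.1 and 224 CPM with MB-3, a small fall of -0.23 (SE 0.071, edgeR adjusted p = 0.0475). The call of Dhx15 was lost without any 1 of the 4 libraries and that of Ddx46 without DMSO replicate 1, MB-3 replicate 1 or MB-3 replicate 2. Ddx23, the counterpart of yeast Prp28, which swaps U1 for U6 at the 5′ splice site, went the other way, from 84.4 and 82.4 CPM to 107 and 101 CPM (0.32, SE 0.081, edgeR adjusted p = 0.0240). Dhx38, of the second step, had 40.6 and 33.8 CPM with DMSO and 41.3 and 37.1 CPM with MB-3. Dhx8, which releases the spliced mRNA, had 31.0 and 22.4 CPM with DMSO and 32.7 and 30.6 CPM with MB-3. The groups of both overlapped, and so did those of Ddx42, a helicase found with the U2 particle, at 46.7 and 37.3 CPM with DMSO and 42.1 and 39.6 CPM with MB-3. Dhx35 had a log2 fold change of -0.26 and did not pass. Without DMSO replicate 1, MB-3 replicate 1 or MB-3 replicate 2, the lower splicing genes numbered 3 each time. The call of Ddx23 was lost without DMSO replicate 2, MB-3 replicate 1 or MB-3 replicate 2 (edgeR adjusted p up to 0.124), and Dhx8 was called as higher without DMSO replicate 1 (edgeR adjusted p = 0.0242).

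Of the 5 genes of transcription and other nuclear roles, 2 fell (Ddx17 and Ddx1), 0 rose and 3 did not pass. This compares with 20.2% lower and 16.9% higher of all genes tested. The median log2 fold change of the 5 genes was -0.24. Ddx5 and Ddx17 form the best known pair of nuclear co-regulators, which bind hormone receptors and the microRNA processor. Ddx17 had 89.3 and 102 CPM with DMSO and 64.6 and 64.2 CPM with MB-3, which was lower in both (log2 fold change -0.57, SE 0.096, edgeR adjusted p = 0.00531). Ddx5 had 581 and 534 CPM with DMSO and 611 and 537 CPM with MB-3, with overlapping groups and a log2 fold change of 0.04 (95% interval -0.17 to 0.26). The count ratio of Ddx17 to Ddx5 was 0.154 and 0.190 with DMSO and 0.106 and 0.119 with MB-3 (exact two-sided permutation p = 0.333). Transcripts of Ddx5 share 14.6% of their 50-base windows with other transcripts, among them the predicted gene Gm12183 and a microRNA within the gene. Ddx1 fell from 142 and 149 CPM to 117 CPM in each MB-3 library (-0.32, SE 0.076, edgeR adjusted p = 0.0203), a call that was lost without any 1 library (edgeR adjusted p up to 0.0916). Dhx9, an abundant nuclear helicase that unwinds paired repeats, had 77.0 and 72.4 CPM with DMSO and 73.2 and 65.7 CPM with MB-3, with overlapping groups (-0.11, 95% interval -0.33 to 0.12), and Ddx20, of the SMN complex, had -0.24 (95% interval -0.48 to 0.01).

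**Figure D4:**
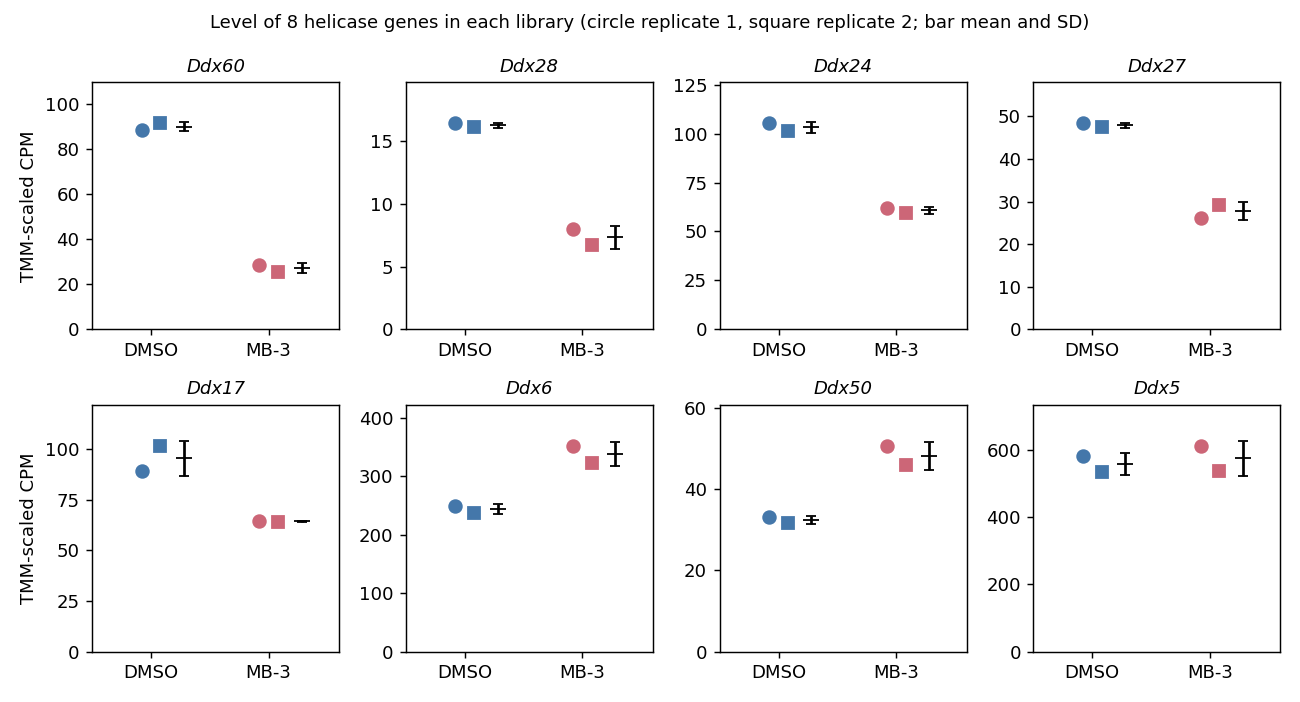
The panels give the TMM-scaled CPM of 8 helicase genes in each library, with circles for replicate 1, squares for replicate 2 and bars for the mean and SD of the 2 libraries of a group. The axes start at 0. Ddx60, Ddx28, Ddx24, Ddx27 and Ddx17 are lower with MB-3, Ddx6 and Ddx50 are higher, and the groups of Ddx5 overlap.

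Ddx4, the mouse vasa gene and a marker of germ cells, was barely detected. It had 23 and 17 counts in the DMSO libraries and 0 in both MB-3 libraries. With 3 counts over the group taken as the floor, it was at least 12.8-fold lower with MB-3, a bound that covers counting error only. No p is given for Ddx4, since it passed the filter on low counts only through the group where it was high. At 1.07 CPM in each DMSO library it was the least abundant of the 49 genes. The other germ cell genes, Ddx25 and Ddx43, had 1 count each over all libraries. Ddx11, a DNA helicase of sister chromatid cohesion, had 3.31 and 3.32 CPM with DMSO and 1.90 and 3.29 CPM with MB-3 and did not pass (-0.35, 95% interval -1.18 to 0.48).

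Among the less studied members, Dhx40 fell from 32.0 and 35.4 CPM to 23.2 and 24.0 CPM (log2 change -0.51, SE 0.11, edgeR adjusted p = 0.0115). Without MB-3 replicate 1 the edgeR adjusted p of Dhx40 was 0.0593. Dhx32 was at 17.3 and 18.6 CPM with DMSO and 11.7 and 17.2 CPM with MB-3, so that MB-3 replicate 1 was well under the other libraries, and it did not pass (-0.31, SE 0.20), although it was called without MB-3 replicate 2 (edgeR adjusted p = 0.0466). Dhx57 was at 11.4 and 9.77 CPM with DMSO and 8.21 and 9.32 CPM with MB-3 and did not pass (-0.28, SE 0.17). Ddx59 (0.11) did not pass, and neither did Ddx26b (0.50, 95% interval -0.01 to 1.01).

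By symbol, 17 of the 34 Ddx genes fell, Ddx4 among them, and 3 rose. Of the 15 Dhx genes 3 fell and 0 rose, and the medians were -0.29 and -0.23. Among all genes tested, 20.2% were lower and 16.9% higher, so the Dhx share that fell was near that of all genes. The difference between the Ddx and Dhx shares was not tested.

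Other genes of the same machinery were read from lists of related genes. The background for the counts that follow was again 20.2% of tested genes lower and 16.9% higher. Of 19 tested further RNA helicases of the same superfamily, 6 fell and 2 rose, and the median was -0.14. Mov10, an interferon-induced helicase, fell from 43.7 and 42.0 CPM to 8.77 and 7.64 CPM (log2 change -2.38, SE 0.12), and Helz2, also interferon-induced, from 142 and 102 CPM to 31.1 and 33.2 CPM (-1.93, SE 0.17). Eif4a1, the DEAD box subunit of the cap-binding complex, rose from 282 and 277 CPM to 523 and 467 CPM (0.82, SE 0.082). Eif4a2 (-0.03, 95% interval -0.26 to 0.20) and Eif4a3 (0.00, 95% interval -0.20 to 0.20), which complete that family, did not pass.

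The shares called in the next 3 lists were read against the same 20.2% lower and 16.9% higher of all genes tested. Cofactors that switch helicases on through G-patch or MIF4G domains fell in 4 and rose in 2 of 25 cases, and the median was -0.06. Cmtr1, a G-patch enzyme that methylates the cap and binds Dhx15, fell from 179 and 160 CPM to 52.1 and 45.3 CPM (-1.80, SE 0.11), and Son, a splicing cofactor of nuclear speckles, rose by 0.85 (SE 0.078). Of 34 ribosome biogenesis factors that are not helicases, 7 rose and 5 fell, and the median was -0.005. Wdr43, of the small subunit processome, had a log2 fold change of -1.15 (SE 0.086), and Gnl3, a nucleolar GTPase, one of 1.13 (SE 0.16). Of 29 core spliceosome proteins, 5 rose and 5 fell, and the median was -0.06, and Prpf38a and Prpf31 had log2 fold changes of -1.06 (SE 0.084) and -0.84 (SE 0.081).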

How the data were processed

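RNA of 2 DMSO and 2 MB-3 libraries was enriched with oligo(dT) and made into strand-specific libraries, per the labels' protocols. The deposited table gives, per the file headers, counts that are whole and not normalized and the authors' FPKM values, which equal the counts over the library total and a gene length (within 0.1% in 100% of genes). Tools listed in the submitters' processing notes were edgeR, HISAT2 and StringTie 1.3.0, with the builds mm10 and GRCm38.p4. How shared reads were counted, and whether counting used strand, is not given in the sources used here. Each column was assigned to its sample from the number and letter in its name.

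Counts of the whole table were fitted with edgeR 4.0.16 in R 4.3.3 (filterByExpr, TMM, glmQLFit and glmQLFTest, group only) and adjusted over 11841 genes. The SE was taken from the F statistic as the size of the log2 change over its square root, intervals are 95%, and signed values in parentheses are log2 fold changes. CPM values are TMM-scaled. The fit was tested on simulated counts drawn with a common dispersion for all genes. That setting is simpler than these data, and no result here rests on it. Chi-square per degree of freedom between replicates was 13.0 (DMSO) and 11.1 (MB-3), so no pair was a copy. GENCODE M21 supplied symbols, exon overlaps and 50-base windows, and RefSeq (GRCm38.p6) the promoters. Alternatives were DESeq2 1.42.0, other scalings and filters, a replicate block, limma 3.58.1 on log2(FPKM + 0.5), and each library left out. Members, role groups and lists of related genes were chosen with earlier results of these data known. Genes were named by rule: the called members with the largest changes at a mean of at least 5 CPM, up to 8 each way, the 3 highest by FPKM, the smallest p in each role, paralog pairs, germ cell members, and the 2 smallest p in each related list. Other genes were named after their values were seen.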

Additional observations from a re-analysis of the deposited data

How the results depend on the processing

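The direction of the helicase calls was negative on balance under all 11 other settings, while the number of calls varied. The lower helicases numbered 20 in the reported analysis and 13 with DESeq2, and the lower splicing and ribosome biogenesis genes numbered 3 each with DESeq2 against 5 and 7. The higher ribosome biogenesis genes numbered 2 with no filter on low counts and 2 with a replicate block, against 1, the addition being Dhx33. Leaving out 1 library at a time gave 11 to 14 lower and 2 to 4 higher helicases, 3 to 4 lower and 0 to 2 higher splicing genes, 3 to 4 lower and 1 to 2 higher ribosome biogenesis genes, and medians from -0.29 to -0.15. Over all genes, the same fits called 3102 to 3653 genes, against 4391. Without Ddx4, Ddx26b and Ddx60, chosen after seeing the data, 18 were lower and 3 higher. No called helicase reversed in any alternative. What the replicate numbers mark is not given, and 2 pairs do not settle whether they pair the libraries: the correlation of their deviations from the group means across genes was 0.217 over 2 pairs, and with the number as a block 21 helicases were lower and 4 higher, and 5046 genes were called in all. With library totals in place of TMM the median of all genes was -0.05. Having 2 libraries a group limits the precision, most of all for Ddx4 (0 to 23 counts a library) and Ddx11 (34 to 71).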
